A study of Xenopus laevis with 5 samples.

Results

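The genes described here encode enzymes of the endoplasmic reticulum (ER) that fold and modify collagen: the prolyl isomerase genes fkbp9.S, fkbp10.L, fkbp14.L, ppib.L and ppib.S, the prolyl hydroxylase gene p3h1.L and the lysyl hydroxylase gene plod3.L. They were taken by their gene symbols in the platform annotation, and all 8 probe sets that carry these 7 symbols are described, out of 15491 probe sets and 7531 named genes other than controls. They were measured in ectodermal explants of Xenopus laevis on 5 single-colour Affymetrix arrays, 1 per sample. Each embryo had been injected with synthetic RNA at the 2-cell stage, its prospective ectoderm was isolated at stage 9 to 10 and cultured on fibronectin, and RNA was taken at stage 22. The injected RNA encoded ICD together with FoxJ1 in 2 samples (ICD+FoxJ1) and ICD without FoxJ1 in 3 samples (ICD), so that every sample had received ICD. ICD commonly stands for the Notch intracellular domain, though the labels leave it unexpanded, and FoxJ1 is a forkhead transcription factor of motile cilia. Nothing in the labels states that replicates are separate embryo batches, and the p-values therefore reflect the spread among these 5 samples alone, part of which may be technical. The comparison asks what the addition of FoxJ1 to ICD does to each transcript.

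Collagen chains enter the ER as they are made. There, hydroxylases modify prolines and lysines, prolyl isomerases of the FKBP and cyclophilin families turn the bonds before proline so that the triple helix can close, and chaperones hold the helix until export. Fibroblasts are the best-known makers of collagen in vertebrate skin, and epidermal cells contribute to the basement membrane on which they rest.

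The values are signal intensities made by the authors with MAS5, given in arbitrary units. The background level of an array was set at the brightest of 20 control probe sets whose target sequences frogs lack, and it lay between 16.9 and 28.4. All 8 probe sets were above it on all 5 arrays and all passed the filter that removed the dimmest 25% of probe sets. The poly-A control transcripts, which are added before labelling, gave signal on ICD+FoxJ1 replicate 1 and ICD replicates 1 and 2 and next to none on ICD+FoxJ1 replicate 2 and ICD replicate 3. Both groups hold arrays of either kind. The division is termed the labelling batch below, a name that rests on these controls and not on any sample label. Medians of the bioB control probe sets parted the arrays in the same way. They were 86.4 and 104.25 on ICD replicates 1 and 2 and 99.8 on ICD+FoxJ1 replicate 1. On ICD replicate 3 and ICD+FoxJ1 replicate 2 they were 227.85 and 250.5. Which step of the work set the arrays apart was not tested, so the name does not place the division at labelling. Genes were compared as log2(signal + 16) with limma's moderated test over 11618 probe sets, and a change is called where the Benjamini-Hochberg adjusted p is under 0.05. A log2 difference is ICD+FoxJ1 minus ICD, and adding 16 shrinks the differences of dim probe sets. Explants are mixtures of cells, so fewer cells of a type and less RNA per cell cannot be told apart.

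With FoxJ1, 3 of the 7 genes fell: fkbp9.S, fkbp10.L and p3h1.L. The other 4 genes, plod3.L, ppib.S, ppib.L and fkbp14.L, did not pass the test, which does not show that they were unchanged. By probe set, 4 of 8 were called lower and 0 higher, where 3.00% of all tested probe sets were called lower, 4.54% higher and 7.54% in either direction. The 8 differences ran from -2.75 to 0.24 with a median of -1.05, beside a median of -0.03 over all tested probe sets. On the arrays with FoxJ1, 6 of the 8 probe sets were lower than on every ICD array, which was so for 23.1% of all tested probe sets. The 7 genes were chosen with earlier results of these data known. The shares over all probe sets are therefore given for scale and are no test of these genes.

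**Figure D1:**
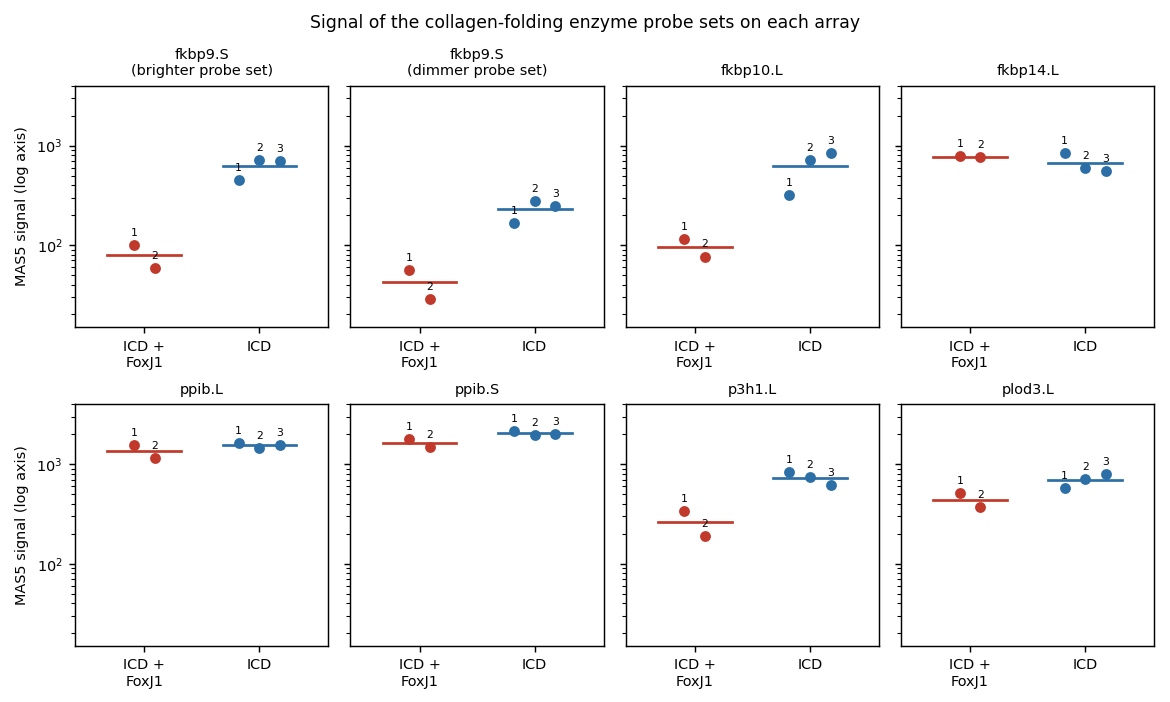
Signal (MAS5, log axis) of each of the 8 probe sets on every array. Points are arrays, numbered by replicate, red for ICD+FoxJ1 (n = 2) and blue for ICD (n = 3), and horizontal lines are arithmetic means. The 2 groups are far apart in fkbp9.S and fkbp10.L, closer in p3h1.L, and overlap in fkbp14.L and ppib.L.

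Among the FKBP isomerases, both probe sets of fkbp9.S fell. The gene encodes a prolyl isomerase of the ER with several FKBP domains. Its brighter probe set had signals of 100.3 and 58.1 with ICD+FoxJ1, against 454.9, 717.9 and 692.1 with ICD. The lowest ICD array was thus still far above the higher array with FoxJ1. The means were 79.2 ± 29.8 (SD, n = 2) with ICD+FoxJ1 and 622 ± 145 (SD, n = 3) with ICD, a log2 difference of -2.75 (SE 0.31, 95% interval -3.47 to -2.04, limma adjusted p = 0.00257), or 6.74-fold lower on the scale of signal + 16. A second, dimmer probe set for fkbp9.S gave 55.5 and 28.7 with ICD+FoxJ1, against 166.3, 275.6 and 247.7 with ICD. Its groups did not overlap either, and the difference was -2.09 (SE 0.32, limma adjusted p = 0.00878), a call that was lost without ICD+FoxJ1 replicate 2 (-1.75, limma adjusted p = 0.0949). In Affymetrix naming this second probe set is of the kind whose probes can match more than 1 transcript. Its signal of 28.7 on ICD+FoxJ1 replicate 2 was close to the background level of that array, 25.3. Both probe sets placed the 5 arrays in the same order.

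The other homeolog of this gene, fkbp9.L, lies outside the 7 genes and is given for comparison. The genome of this frog is doubled, many genes exist as an L and an S homeolog, and probes made for either may hybridise with both. Fkbp9.L had signals of 48.8 and 65.8 with ICD+FoxJ1, against 118.1, 140.7 and 216.1 with ICD. These groups did not overlap, and the log2 difference was -1.22 (SE 0.30, limma adjusted p = 0.0505), which narrowly missed the threshold. Fkbp9.L passed in 6 of 15 alternative settings, with adjusted p-values between 0.0178 and 0.375. The log2 ratio of fkbp9.S (brighter probe set) to fkbp9.L was 0.84 and -0.14 on the arrays with FoxJ1, against 1.81, 2.23 and 1.61 on the ICD arrays. With the dimmer probe set of fkbp9.S the ratio was 0.14 and -0.87 on the arrays with FoxJ1, against 0.44, 0.90 and 0.18 on the ICD arrays, where the nearest arrays of the groups almost met. The difference in response, S copy minus L copy, was -1.53 on the log2 scale by the brighter and -0.87 by the dimmer probe set, each with an exact two-sided permutation p = 0.2, the smallest that 10 splits of 5 arrays allow. The 2 probe sets of fkbp9.S also differed from each other in response, by -0.66 (brighter minus dimmer). Their log2 ratios did not overlap between the groups either (exact permutation p = 0.2). Of 8 such pairs compared, 7 had that p (0.229 after Benjamini-Hochberg adjustment), so none could pass. All but the pair of ppib.L and ppib.S were chosen after their values were seen.

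Fkbp10.L encodes a prolyl isomerase that in mammals assists the folding and lysine hydroxylation of type I collagen. Its signals were 116.1 and 76.6 with ICD+FoxJ1, against 315.2, 710.2 and 840.5 with ICD. ICD replicate 1 was well below the other ICD arrays, but above both arrays with FoxJ1. The means were 96.4 ± 27.9 (SD, n = 2) with ICD+FoxJ1 and 622 ± 274 (SD, n = 3) with ICD, and the log2 difference was -2.42 (SE 0.42, 95% interval -3.39 to -1.45, limma adjusted p = 0.0146). The call was lost without ICD+FoxJ1 replicate 1 (-2.67, limma adjusted p = 0.0858) and without ICD+FoxJ1 replicate 2 (-2.16, limma adjusted p = 0.134).

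Fkbp14.L encodes a smaller ER isomerase that in mammals binds type III collagen, among others. It had signals of 777.3 and 767.2 with ICD+FoxJ1, against 833.4, 590.4 and 561.0 with ICD. The arrays with FoxJ1 lay inside the range of the ICD arrays. The log2 difference of 0.24 (SE 0.24, limma adjusted p = 0.578) had a 95% interval of -0.32 to 0.80, which leaves room for a moderate rise but holds no fall of the size seen in fkbp10.L. Set directly against fkbp14.L on the same arrays, the difference in response was -2.99 for fkbp9.S (brighter probe set) minus fkbp14.L and -2.66 for fkbp10.L minus fkbp14.L on the log2 scale. In each the log2 ratios of the groups did not overlap, and the exact permutation p = 0.2 was the smallest possible. Both pairs were chosen after their values were seen, so neither the separation nor this p is a test of them.

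Both homeologs of the cyclophilin B gene, ppib.L and ppib.S, are among the 7 genes. Cyclophilin B is an ER prolyl isomerase that works alone and, in mammals, in a complex with the prolyl hydroxylase encoded by p3h1 and the helper protein Crtap. Ppib.L had signals of 1567.9 and 1152.7 with ICD+FoxJ1, against 1623.1, 1465.7 and 1569.0 with ICD. ICD+FoxJ1 replicate 1 lay inside the ICD range and replicate 2 below it, and the difference was -0.20 (SE 0.21, 95% interval -0.68 to 0.28, limma adjusted p = 0.585). Ppib.S had 1779.5 and 1491.6 with ICD+FoxJ1, against 2180.1, 1976.9 and 2021.3 with ICD. Here both arrays with FoxJ1 were below all ICD arrays, by a small step, with a difference of -0.33 (SE 0.18, 95% interval -0.76 to 0.09, limma adjusted p = 0.307). The log2 ratio of ppib.L to ppib.S was -0.18 and -0.37 on the arrays with FoxJ1, against -0.42, -0.43 and -0.36 on the ICD arrays, so the groups overlapped. The difference in response, ppib.L minus ppib.S, was 0.13 on the log2 scale (exact two-sided permutation p = 0.4). The 95% interval of each homeolog leaves out a fall as large as the -1.45 of p3h1.L. The interval of p3h1.L itself, -2.12 to -0.77, nearly meets that of ppib.S. Whether either homeolog responded differently from p3h1.L was not tested.

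P3h1.L encodes the prolyl 3-hydroxylase that acts on collagen chains in the complex with cyclophilin B. Its signals were 341.4 and 190.1 with ICD+FoxJ1, against 835.3, 742.6 and 613.0 with ICD. The groups did not overlap, with means of 266 ± 107 (SD, n = 2) with ICD+FoxJ1 and 730 ± 112 (SD, n = 3) with ICD. The log2 difference was -1.45 (SE 0.29, 95% interval -2.12 to -0.77, limma adjusted p = 0.0264), or 2.73-fold lower on the scale of signal + 16. The call was lost without ICD replicate 2 (-1.43, limma adjusted p = 0.0643), without ICD+FoxJ1 replicate 1 (-1.85, limma adjusted p = 0.0534) and without ICD+FoxJ1 replicate 2 (-1.05, limma adjusted p = 0.189).

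Plod3.L encodes a lysyl hydroxylase that also adds sugars to the hydroxylysines of collagen and in mouse is needed for type IV collagen of basement membranes. Its signals were 515.0 and 369.2 with ICD+FoxJ1, against 576.1, 719.3 and 802.5 with ICD. The groups did not overlap, but ICD+FoxJ1 replicate 1 came close to ICD replicate 1. The difference of -0.65 (SE 0.25, 95% interval -1.23 to -0.07) had an unadjusted p = 0.0331 and a limma adjusted p = 0.163, so it did not pass. Compared on the same arrays, p3h1.L minus plod3.L had a difference in response of -0.80 on the log2 scale (exact permutation p = 0.2). The log2 ratios were -0.57 and -0.90 on the arrays with FoxJ1, against 0.52, 0.05 and -0.38 on the ICD arrays. This pair, too, was chosen after its values were seen.

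**Figure D2:**
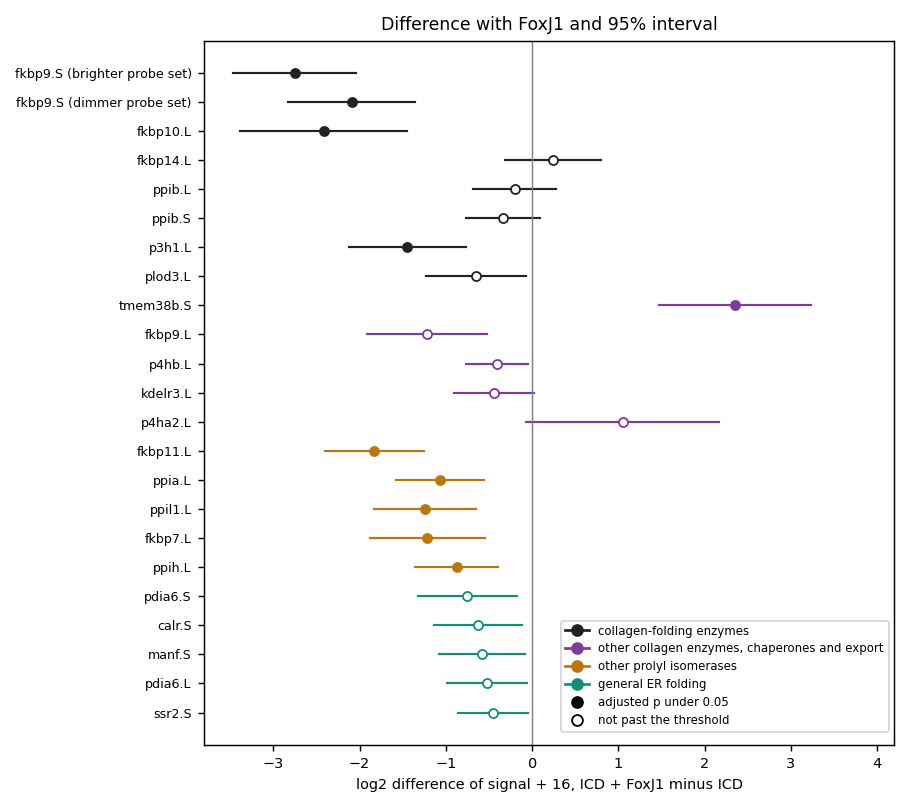
Log2 difference of signal + 16, ICD+FoxJ1 minus ICD, with its 95% interval from limma, for the 8 probe sets (black) and for the genes with the smallest p in the lists of other collagen enzymes, chaperones and export factors (purple), other prolyl isomerases (orange) and general ER folding (green). Filled points have an adjusted p under 0.05. The intervals of fkbp9.S, fkbp10.L and p3h1.L end below -0.7, and those of fkbp14.L, ppib.L and ppib.S include 0.

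The members also varied among arrays of the same group. On ICD replicate 1, both probe sets of fkbp9.S, fkbp10.L and plod3.L were at their lowest among the ICD arrays, and fkbp14.L, ppib.L, ppib.S and p3h1.L at their highest. Of all tested probe sets 42.3% were lowest and 35.5% highest there. Between the arrays with FoxJ1, replicate 2 was below replicate 1 in 8 of 8 probe sets, which was so for 52.1% of all tested probe sets. Within the labelling batch with poly-A signal, which holds ICD+FoxJ1 replicate 1 and ICD replicates 1 and 2, the log2 differences were -2.34 and -1.69 for fkbp9.S, -1.89 for fkbp10.L and -1.17 for p3h1.L. Within the other batch, of ICD+FoxJ1 replicate 2 and ICD replicate 3, they were -3.26 and -2.56 for fkbp9.S, -3.21 for fkbp10.L and -1.61 for p3h1.L. The direction was the same in both batches, each of which has 1 array with FoxJ1. In the fit of the batch with poly-A signal alone 0 of the 8 probe sets passed, with a limma adjusted p = 0.0663 for the brighter probe set of fkbp9.S. With the batch as a block all 4 calls were made again.

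**Figure D3:**
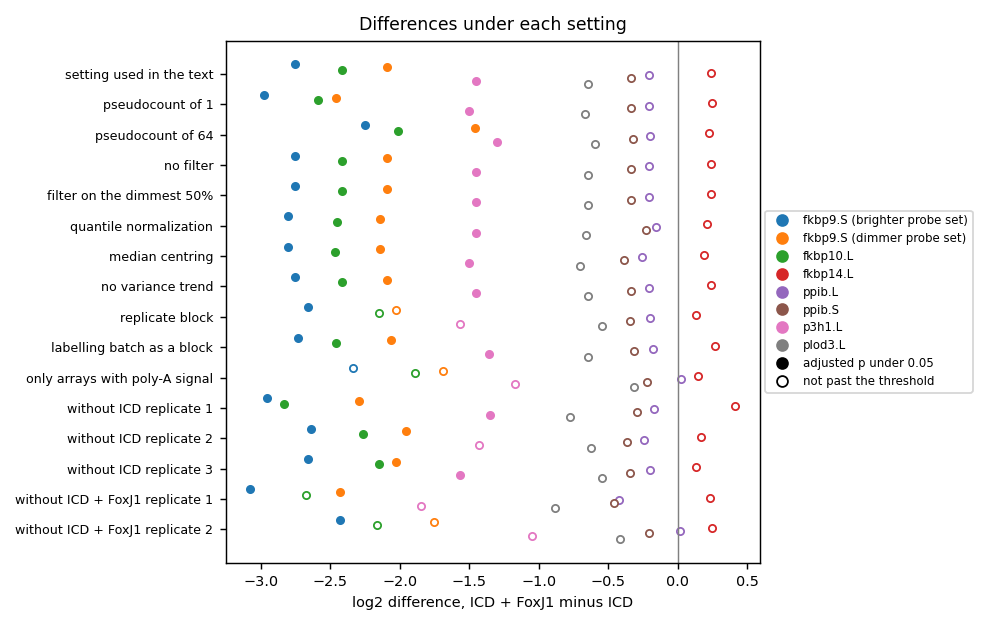
Log2 difference, ICD+FoxJ1 minus ICD, of the 8 probe sets (colours) under the setting used in the text and 15 alternatives. Filled points have an adjusted p under 0.05. The brighter probe set of fkbp9.S passed in 14 of the 15 alternatives, fkbp10.L in 11 and p3h1.L in 10, and plod3.L, ppib.S, ppib.L and fkbp14.L in 0.

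A list of 12 other genes for ER enzymes, chaperones and export factors of collagen included fkbp9.L, the homeolog described above. Of the 12, 1 rose, 0 fell and 11 did not pass in limma, with a median log2 difference of -0.38. At an unadjusted p under 0.05, 2 were lower, fkbp9.L and p4hb.L, and 1 higher. The gene that rose was tmem38b.S, which encodes a cation channel of the ER membrane that in human is linked to collagen synthesis in bone. It had signals of 306.5 and 371.7 with ICD+FoxJ1, against 32.6, 43.0 and 99.8 with ICD (log2 difference 2.35, SE 0.38, limma adjusted p = 0.0113). This call was lost without ICD+FoxJ1 replicate 1 (limma adjusted p = 0.0912) or ICD+FoxJ1 replicate 2 (limma adjusted p = 0.111). P4hb.L, which encodes protein disulphide isomerase, a subunit of prolyl 4-hydroxylase, differed by -0.41 (SE 0.15, limma adjusted p = 0.157). A dimmer probe set for p4hb.L differed by -0.64 (SE 0.21, limma adjusted p = 0.115), and the homeolog p4hb.S by -0.02 (SE 0.21, limma adjusted p = 0.966). P4ha2.L, for a catalytic subunit of prolyl 4-hydroxylase, differed by 1.05 (SE 0.48, limma adjusted p = 0.226), with 229.9 and 131.6 with ICD+FoxJ1, against 31.4, 126.4 and 99.4 with ICD. The KDEL receptor gene kdelr3.L, of retrieval to the ER, differed by -0.44 (SE 0.20, limma adjusted p = 0.220). Serpinh1.S, the collagen chaperone Hsp47, was named after its values were seen. It had 43.5 and 23.0 with ICD+FoxJ1, against 26.5, 153.9 and 234.8 with ICD, so that ICD replicate 1 lay among the arrays with FoxJ1 (-1.34, SE 0.68, limma adjusted p = 0.270).

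Prolyl isomerases of other roles or compartments were looked at as well. Of 21 genes, 5 fell and 0 rose, and the median of all 21 was -0.41. Fkbp11.L and fkbp7.L encode further FKBP proteins of the ER. Fkbp11.L averaged 45.2 ± 6.79 (SD, n = 2) with ICD+FoxJ1 and 202 ± 32.1 (SD, n = 3) with ICD, and its groups did not overlap (-1.83, SE 0.25, limma adjusted p = 0.00557). Fkbp7.L had 52.2 and 35.7 with ICD+FoxJ1, against 88.5, 134.8 and 150.1 with ICD (-1.21, SE 0.29, limma adjusted p = 0.0448). The others were ppia.L, cytosolic cyclophilin A (-1.07, SE 0.22, limma adjusted p = 0.0279), and ppil1.L (-1.24) and ppih.L (-0.87), cyclophilins of the spliceosome. A dimmer probe set for ppia.L, at -0.31, did not pass. The number called was 0 when either array with FoxJ1 was left out, 2 without ICD replicate 2 and 1 without ICD replicate 3. The differences stayed negative in these fits: that of fkbp11.L was -1.94 without ICD+FoxJ1 replicate 1 (limma adjusted p = 0.0574) and -1.72 without ICD+FoxJ1 replicate 2 (limma adjusted p = 0.0776), where the group with FoxJ1 has 1 array.

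General folding, translocation and stress genes of the ER made up a list of 44 tested genes, of which 0 rose, 0 fell and 44 did not pass in limma. At an unadjusted p under 0.05, 7 were lower and 0 higher. Their median log2 difference was -0.32, and 42 of 44 differences were negative, beside 52.0% of all tested probe sets, within a narrow range of -0.75 to 0.52. The genes with the smallest p were pdia6.S (-0.75) and pdia6.L (-0.53), for a protein disulphide isomerase, calr.S, for the chaperone calreticulin (-0.63), manf.S, an ER stress response gene (-0.58), and ssr2.S, of the translocon-associated complex (-0.46). The differences of ppib.L, ppib.S, plod3.L and fkbp14.L lay inside that range, and those of fkbp9.S, fkbp10.L and p3h1.L lay below it. The range takes each gene by its brightest probe set. A dimmer probe set for the chaperone gene canx.L, at -0.77, lay just outside it. Whether the members differ from this list was not tested.

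**Figure D4:**
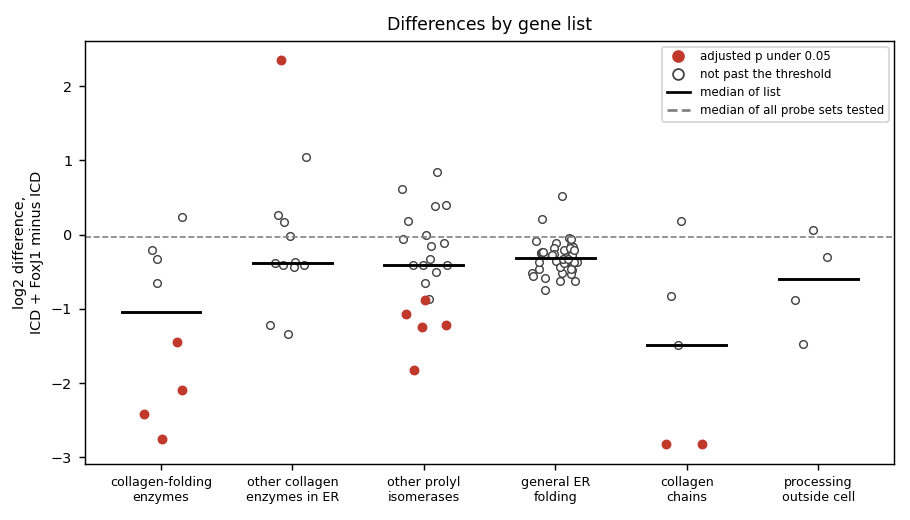
Log2 difference, ICD+FoxJ1 minus ICD, of the 8 collagen-folding enzyme probe sets and of the tested genes of each list. Red points have an adjusted p under 0.05, black bars are medians and the dashed line is the median of all tested probe sets, -0.03. The 44 general ER genes, each taken by its brightest probe set, lie between -0.75 and 0.52, and fkbp9.S, fkbp10.L and p3h1.L lie below them.

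Of 14 collagen chain genes, each taken by its brightest probe set, 8 were at or below background on all 5 arrays and 5 could be tested, of which 2 fell. These were col18a1.S (-2.83) and col18a1.L (-2.82), for a basement membrane collagen. Col6a1.L had 39.5 and 29.2 with ICD+FoxJ1, against 28.6, 208.6 and 259.6 with ICD, and did not pass (-1.49, SE 0.71, limma adjusted p = 0.242). Without ICD replicate 1, 4 collagen genes fell. The type I chain genes col1a1.S (-0.83) and col1a2.L (0.19) did not pass. Without ICD replicate 1, col1a1.S passed (-1.18, limma adjusted p = 0.0286) and col1a2.L did not (-0.06). A dimmer probe set for col1a1.S, below background on both arrays with FoxJ1, had groups that did not overlap (-0.96, limma adjusted p = 0.0992). Of 10 genes that process or cross-link collagen outside the cell 4 could be tested and 0 passed in limma, with 2 lower at an unadjusted p under 0.05. Loxl1.L, a lysyl oxidase gene, had 14.6 and 20.1 with ICD+FoxJ1, against 20.9, 94.5 and 176.3 with ICD. Both arrays with FoxJ1 and ICD replicate 1 were below their background levels, and the test was not passed (-1.47, SE 0.60, limma adjusted p = 0.185), but without ICD replicate 1 it was -2.13 (limma adjusted p = 0.00460). Tll1.S, a tolloid protease gene, differed by -0.88, bmp1.S by -0.31 and pcolce.S by 0.06.

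The named genes with a pattern most like that of fkbp9.S (brighter probe set) were sought over the 5 arrays by the root mean square distance between log2 values centred on their mean, among the 6090 other named genes that passed the filter. The nearest was sparc.S, a matrix glycoprotein that binds collagen, at a distance of 0.15. It had 127.3 and 90.3 with ICD+FoxJ1, against 521.9, 1007.7 and 1061.4 with ICD. Ptgs1.S, for a cyclooxygenase, followed at 0.17, col18a1.L at 0.20, hapln3.L, for a link protein of the hyaluronan matrix, at 0.26 and mmp28.L, for a matrix metalloproteinase, at 0.31. The dimmer probe set of fkbp9.S itself lay at 0.32, with 5 named genes nearer. Of the other members, fkbp10.L lay at 0.30, with 4 named genes nearer, and p3h1.L at 0.73, with 71 nearer. Plod3.L lay at 1.04, ppib.S at 1.22, ppib.L at 1.28 and fkbp14.L at 1.54, with 4414 nearer. These distances describe 5 arrays and carry no test.

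Cell type markers were looked at in the same contrast. Epidermal markers were bright in sum on all 5 arrays, at 65039 to 83085 with ICD+FoxJ1 and 72773 to 94809.7 with ICD over 25 genes. Not every marker was bright, and krt12.6.S was below background on all 5 arrays. Of the 25 genes, 0 rose and 5 fell, and 12 of 24 tested differences were negative, with a median of -0.06. The 5 were krt19.L (-1.96), cldn6.2.L (-1.26), krt19.S (-1.02), epcam.L (-0.71) and tp63.L, which encodes a regulator of basal epidermal cells (-1.81, SE 0.23, limma adjusted p = 0.00412). Multiciliated cell markers summed to 23327 to 25992 with ICD+FoxJ1 and 469.6 to 1825 with ICD, and 14 of 14 rose. Notochord, muscle and other mesoderm markers summed to 825 to 883 with ICD+FoxJ1 and 988 to 1093 with ICD over 19 genes. Of 8 tested, 2 were higher and 1 lower. The gene that fell, ckm.L, for muscle creatine kinase, carried the lower sum, and without it, a choice made after its values were seen, the other 18 genes summed to 617.5 and 669.1 with ICD+FoxJ1, against 599.5, 488.0 and 393.5 with ICD. Of the notochord markers, shh.L and tbxt.2.S were below background on all arrays, tbxt.S was above it on 1 array, not.L on 2 and not.S on all 5, at 38.6 and 33.3 with ICD+FoxJ1, against 36.1, 44.3 and 63.5 with ICD. Neural and neural crest markers summed to 2865 to 3715 with ICD+FoxJ1 and 2061 to 4077 with ICD. The largest part of each sum was pax3.L, which did not pass (0.34). Of 13 tested, 1 rose and 5 fell, 9 differences were negative, and the median was -1.08. The 5 were snai2.S (-1.60), tubb2b.S (-1.43), ncam1.S (-1.24), msi1.L (-1.18) and snai2.L (-1.15), and sox9.S rose (1.62). Snai2.S, snai2.L and ncam1.S were below background on both arrays with FoxJ1. Blood and endoderm markers summed to 704 to 1218 with ICD+FoxJ1 and 939 to 1642 with ICD. The largest part of each sum was a2m.S, at 407.6 and 919.2 with ICD+FoxJ1, against 574.7, 614.9 and 1416.3 with ICD. Of the 14 genes, 7 were at or below background on all 5 arrays and 5 were tested, with 0 called. The part of any of these cell types in the differences of the collagen-folding enzymes was not tested.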

How the data were processed

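Each array was deposited as linear signal intensity values, 1 for every probe set, which the authors computed in MAS5, as the submitters' processing notes state. The version of MAS5 is not given in the sources used here. Each array had been scaled to a mean, trimmed by 2% at either end, of about 200.03. Probe sets were named through GEO's platform annotation (1 symbol for 9304, several for 195, none for 6112) and gene identifiers of the RefSeq table of assembly Xenopus_laevis_v10.1, used for names only. No genome or sequence table was used.

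Control probe sets (120) and the 25% with the lowest mean were left out. Log2(signal + 16) was fitted with limma 3.58.1 (R 4.3.3; lmFit, eBayes with trend) over 11618 probe sets, with two-sided tests and Benjamini-Hochberg adjustment at 0.05. The code was tested on simulated data for this comparison, in 20 simulations with 200 altered probe sets each. Where the true change was 2-fold, only 9.18% of the altered probe sets were called. The share was 65.1% where it was 4-fold, and 94.5% where it was 16-fold. Most changes of 2-fold were thus missed in the simulations, and a gene that did not pass cannot be taken as unchanged. The data gave 876 calls, more than the number altered in a simulation, so the share called in the data may differ. Differences between probe sets were tested with exact permutation over arrays (SciPy 1.17.1). The number of arrays limits the precision. The members, gene lists and alternatives were chosen with earlier results of these data known. Each gene in a list was represented by its brightest probe set. Named genes are the members, up to 5 genes of each list with the smallest p, and the 5 genes nearest to fkbp9.S; the pairs other than ppib.L and ppib.S were chosen after their values were seen. Alternatives were other pseudocounts (1, 64), filters (none, 50%), scalings, blocks and the omission of arrays. Figures were drawn with matplotlib 3.10.9.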

Additional observations from a re-analysis of the deposited data

How the results depend on the processing

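Of the 8 probe sets, ppib.L turned direction, to 0.023 with the 3 arrays with poly-A signal alone and to 0.015 without ICD+FoxJ1 replicate 2 (-0.42 to 0.015 with each array left out), and it passed in 0 of 15 alternatives. The other 7 kept their direction in all 15. The 4 member calls (fkbp9.S with 2 probe sets, fkbp10.L and p3h1.L) became 1 with the replicate number as a block, 0 with the arrays with poly-A signal alone, and 1 to 4 when each array was left out in turn, the lowest without ICD+FoxJ1 replicate 2 and 2 without ICD+FoxJ1 replicate 1. The cause was not tested. Over all probe sets, 527 were called higher and 349 lower. These counts were 247 and 75 with the replicate block, 150 and 19 with the arrays with poly-A signal alone, 129 to 748 and 34 to 656 with each array left out in turn, and 213 lower with the labelling batch as a block. Deviations from the group means correlated with r = -0.05 for the arrays numbered 1 and r = -0.28 for those numbered 2. The 2 deviations with FoxJ1 mirror each other by construction, and the arrays numbered 2 are of different labelling batches. These values therefore cannot show whether the replicate numbers pair the arrays.

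In the list of other collagen factors, 1 gene fell (fkbp9.L) with a pseudocount of 1, quantile normalization, median centring, no variance trend or the labelling batch as a block, and 0 to 2 fell with an array left out. Its count of rises ranged from 0 to 1 with an array left out. Of the other prolyl isomerases, 3 fell with no filter, 1 with the replicate block, 2 with the labelling batch as a block, 0 with the arrays with poly-A signal alone and 0 to 5 with an array left out, where 0 to 1 rose. With an array left out, 2 to 4 collagen chain genes and 0 to 1 genes of processing outside the cell fell. Among genes outside the members, differences near 0 turned sign with an array left out in col1a2.L (-0.063 to 0.39, negative without ICD replicate 1 or ICD+FoxJ1 replicate 2), bmp1.S (-0.67 to 0.051, positive without ICD+FoxJ1 replicate 1) and pcolce.S (-0.079 to 0.17, negative without ICD replicate 2).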

Other observations

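Across all FKBP genes with a tested probe set, those whose proteins reside in the ER and those of other compartments can be set side by side, in a grouping made after the values were seen. Of 8 ER genes (fkbp2.L, fkbp2.S, fkbp7.L, fkbp9.L, fkbp9.S, fkbp10.L, fkbp11.L and fkbp14.L), 4 fell, where 3.00% of all tested probe sets were called lower. Among the 4 are the members fkbp9.S and fkbp10.L, chosen with earlier results of these data known. The median log2 difference of the 8 ER genes was -1.22. Within this group fkbp2.L, for a small isomerase of the ER lumen, had signals of 386.6 and 378.7 with ICD+FoxJ1, against 353.2, 406.3 and 395.0 with ICD, and differed by -0.01 (SE 0.21), while fkbp2.S differed by -0.41 (SE 0.22). Of 5 other FKBP genes (fkbp1a.L, fkbp1a.S, fkbp1b.L, fkbp1b.S and fkbp4.S), 0 passed in limma, with differences from -0.41 to 0.40 and a median of 0.19. The difference between these groups was not tested.

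On ICD replicate 1, serpinh1.S (26.5), col6a1.L (28.6) and loxl1.L (20.9) were near or below the background level of that array, 28.4, whereas on ICD replicates 2 and 3 they ranged from 94.5 to 259.6. Fkbp10.L, at 315.2 on ICD replicate 1 against 710.2 and 840.5 on ICD replicates 2 and 3, placed the 3 ICD arrays in the same order as these genes. These genes were chosen after their values were seen. Tmem38b.L, the homeolog of the gene that rose, had 376.7 and 284.7 with ICD+FoxJ1, against 60.3, 577.1 and 499.4 with ICD, a log2 difference of 0.27 with SE 0.80 (limma adjusted p = 0.873).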
